A study of Rattus norvegicus with 31 samples.

Results

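Macrophages and related myeloid cells were followed in irradiated rat testes through 34 genes that these cells are known for. Each gene was read from the probe set that carries its symbol, an older symbol being accepted, and, where several did, from the one with the highest mean signal. A named probe set was found for 31 of the 34 genes, out of 14217 named genes on the array, and 27 of the 31 passed the filter on low signals that left 11379 genes for testing. Msr1, Spi1 and Slc11a1 had no named probe set here. Itgam, Fcgr2b, Ncf1 and Ccr2 had one that stayed below the filter level in nearly every array, and they were not tested.

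Signals came from 31 Affymetrix arrays, each hybridised with total RNA of testes from LBNF1 rats, 25 to 27 weeks old, whose lower abdomen had been exposed to 6 Gy. There were 14 arrays after sham treatment, 11 after hormone ablation and 6 after ablation with estradiol. Hormone ablation combined a GnRH antagonist, which lowers the pituitary gonadotropins, with flutamide, which blocks the androgen receptor. The estradiol group had both of these drugs and estradiol; its labels also name FSH supplementation. All 3 groups were irradiated, so no comparison here is with an unirradiated testis, although the description of 10 of the 14 sham arrays calls them control testes and that of the other 4 irradiated. The estradiol arrays were deposited later than the rest, and their deposited values carry fewer decimals. Their treatment cannot be told apart from their deposit or from any difference in how their values were prepared. The labels call the arrays biological replicates and do not say more about the animals.

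Macrophages of the rat testis lie in the interstitium beside the steroid-producing Leydig cells. Resident ones carry the scavenger receptor CD163, which the antibody ED2 sees, whereas CD68, seen by ED1, is prominent on cells newly arrived from blood. Their survival depends on the growth factor CSF1 acting on its receptor CSF1R, and much of the myeloid gene programme is switched on by the transcription factor PU.1, the product of Spi1. In whole testis RNA, fewer macrophages and less RNA of a gene per macrophage cannot be told apart.

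Values below are log2 signals, with the lowest, median and highest array of each group, and a change is the difference of group means from limma with its standard error (SE). A gene is called where its Benjamini-Hochberg adjusted p over all 21269 probe sets kept is under 0.05. The base of the deposited logarithm is not stated and was read as 2, so every fold change rests on that reading. Signals of different probe sets are not comparable with each other. Array medians lay between -1.44 and -1.24, the filter level of single arrays between -1.93 and -1.75, and correlations between arrays between 0.8482 and 0.9744, with 0 identical pairs. In 4 arrays (sham arrays 1 and 5 and estradiol arrays 1 and 5) the highest signals were lower than in the rest.

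With hormone ablation, 13 of the 27 tested genes were called lower than in sham-treated testes and 0 were called higher (15 at an unadjusted p under 0.05). Over all 11379 tested genes, 12.8% were called lower, 9.24% higher and 22.1% in either direction. The median change of the 27 genes was -0.26, against 0.00045 over all genes, and 23 of the 27 changes were below 0. In 2 of them, Mrc1 and Lgals3, no ablation array reached the lowest sham array, while 1.99% of all genes were separated in that way and 0.431% in the opposite direction. The count of lower genes was 11 after quantile normalization and 13 with each array centred on its median. It was 8 without sham array 1, and 9 without the 4 arrays of lowest maxima, where Csf1r, Cyba, Cybb and Tyrobp were not called (adjusted p between 0.0735 and 0.119). Taking as reference the 10 sham arrays described as control gave 7, and taking the 4 described as irradiated also gave 7.

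**Figure D1:**
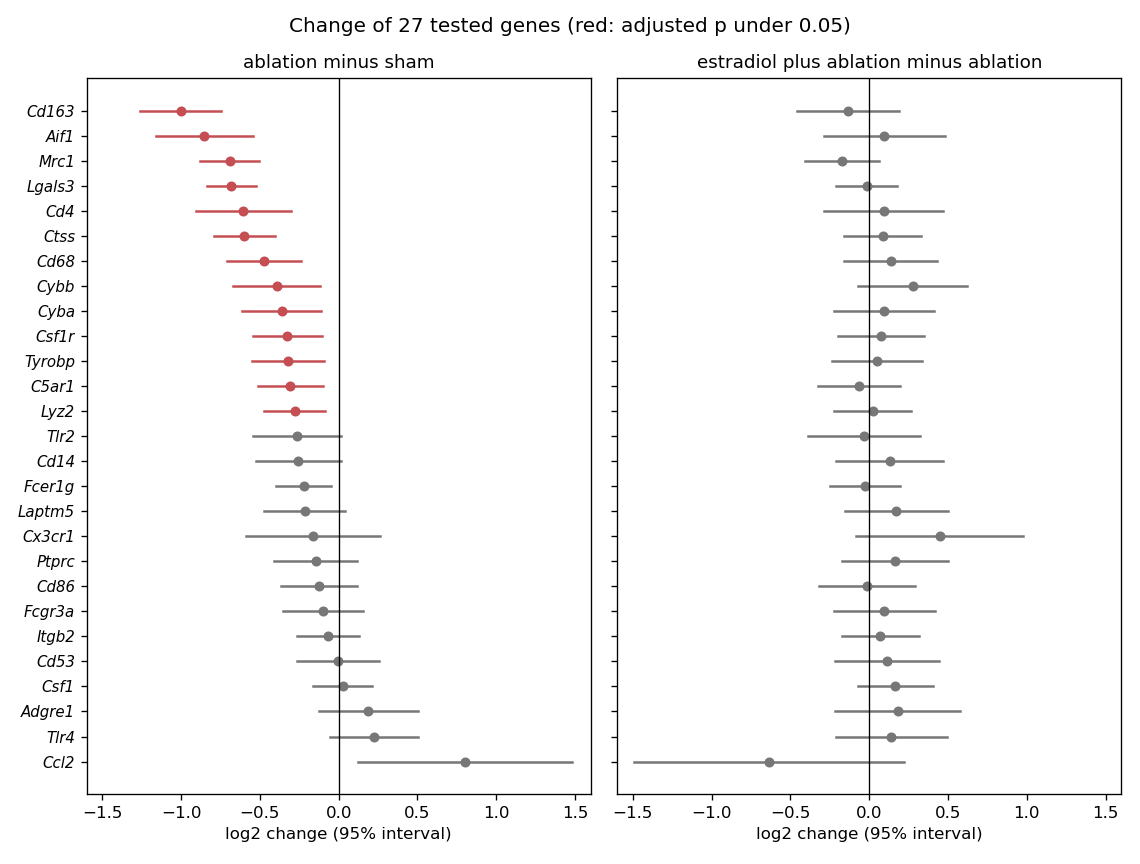
Log2 change of each of the 27 tested genes with its 95% interval, ablation minus sham on the left and estradiol plus ablation minus ablation on the right; red marks an adjusted p under 0.05. On the left 13 genes are red, from Cd163 at -1.003 to Lyz2 at -0.28, and on the right every interval crosses 0.

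Cd163, Mrc1, Csf1r and Adgre1 were taken as markers of resident macrophages. Of these, Cd163 and Mrc1 fell most with ablation, Csf1r fell less and Adgre1 was not called. Cd163 (probe set 1393917_at), the receptor that takes up haemoglobin bound to haptoglobin, had sham signals of 0.48, 1.23 and 1.75 (lowest, median and highest), ablation signals of -0.30, 0.22 and 0.76, and estradiol signals of -0.24, 0.18 and 0.46. All 11 ablation arrays lay below the sham mean and 9 lay below the lowest sham array, which was array 5. The change was -1.003 (SE 0.13), a 2.00-fold lower level, with an adjusted p of 1.50e-07.

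Mrc1 (1392648_at), the mannose receptor of tissue macrophages, had sham signals of 2.34, 2.63 and 3.06. Its ablation signals were 1.69, 1.99 and 2.28, and its estradiol signals 1.26, 1.95 and 2.20. Neither group given the antagonists overlapped with sham. The fall with ablation was 1.62-fold (log2 change -0.69, SE 0.09, adjusted p = 4.26e-07).

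Cd68 (1375010_at), which encodes a glycoprotein of macrophage lysosomes, had sham signals of -0.59, -0.09 and 0.61 and ablation signals of -0.98, -0.61 and -0.13. The estradiol signals were -0.83, -0.45 and -0.12. The groups overlapped, though all 11 ablation arrays lay below the sham mean and 6 below the lowest sham array. Cd68 fell 1.39-fold with ablation (-0.48, SE 0.12, adjusted p = 0.0027). When the 4 sham arrays described as irradiated served alone as the reference, its change was -0.43 and the call was lost (adjusted p = 0.0764).

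Adgre1 (1381311_at), the rat gene of the F4/80 antigen, did not take part in this fall. Its signals were -2.01, -1.32 and -0.89 in sham, -2.06, -1.16 and -0.21 in ablation and -1.57, -0.93 and -0.58 in estradiol arrays. The 3 groups overlapped, and the change with ablation was 0.19 (SE 0.15, 95% interval -0.13 to 0.50, adjusted p = 0.437). The 4 tested genes of this group of surface and scavenger receptors were thus 3 lower and 1 not called, where 12.8% of all genes were called lower.

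**Figure D2:**
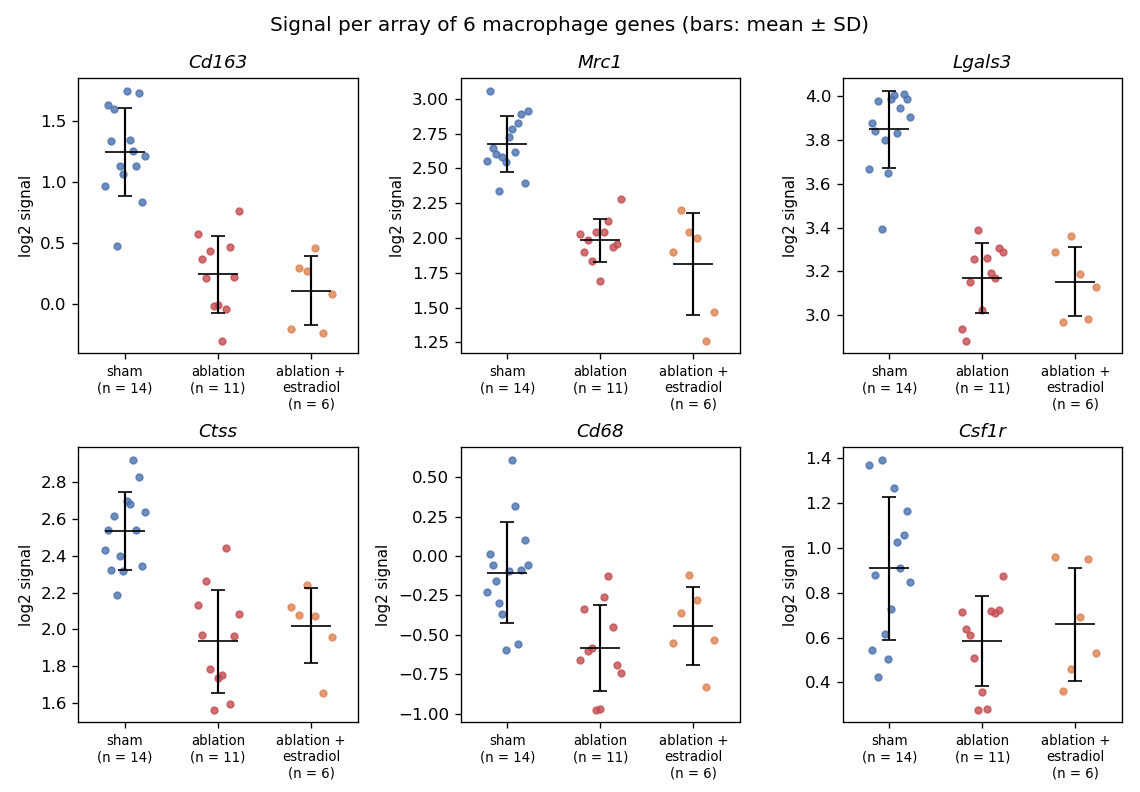
Log2 signal of Cd163, Mrc1, Lgals3, Ctss, Cd68 and Csf1r in each of the 31 arrays, with bars for the group mean ± SD. In Mrc1 and Lgals3 every sham point lies above every point of the other groups, while the groups overlap in Cd68 and Csf1r.

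Cd163 was also set against other macrophage genes within the same array. The difference between the log2 signals of Cd163 and Cd68, which reads only how unequally the pair moved, averaged 1.35 ± 0.41 (SD, n = 14) in sham and 0.82 ± 0.45 (SD, n = 11) in ablation arrays. It was smaller by 0.53 with ablation (change -0.53, 2-sided permutation test, p = 0.00571, adjusted over 6 such tests 0.00856). In the estradiol arrays it averaged 0.55 ± 0.16 (SD, n = 6). The gap to Ptprc, the pan-leukocyte gene of CD45, changed by -0.86 with ablation (permutation test, p = 0.00037, adjusted 0.000774), with 8 of 11 ablation arrays below the lowest sham array. Cd163 had the lowest change of the tested genes, so both gaps restate the separate changes of their genes and add no support. Against sham, the estradiol arrays changed by -0.80 in the gap to Cd68 (exact permutation test, p = 0.000387, adjusted 0.000774). In the gap to Ptprc they changed by -1.15 (exact permutation test, p = 5.16e-05, adjusted 0.00031). Between the estradiol and ablation arrays the Cd163 to Cd68 gap changed by -0.27 (exact permutation test, p = 0.181, adjusted 0.217) and the gap to Ptprc by -0.30 (exact permutation test, p = 0.257, adjusted 0.257).

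Genes of the phagosome and lysosome came next. Lgals3 (1386879_at), which encodes galectin-3, a lectin abundant in macrophages and made by other cells as well, had sham signals of 3.39, 3.89 and 4.01, ablation signals of 2.88, 3.19 and 3.39 and estradiol signals of 2.97, 3.16 and 3.36. The groups did not overlap, but only narrowly, since sham array 5 stood apart at the low end and lay just above the highest ablation array. The change with ablation was -0.68 (SE 0.08), an adjusted p of 9.04e-09, the smallest of the 27 genes.

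Ctss (1387005_at), cathepsin S, the protease that trims the class II invariant chain, had sham signals of 2.18, 2.54 and 2.92. In ablation arrays they were 1.56, 1.96 and 2.44, and in estradiol arrays 1.65, 2.08 and 2.24. Of the ablation arrays 9 of 11 lay below the lowest sham array, and only arrays 3 and 8 reached into the sham range. Ctss fell 1.52-fold (-0.60, SE 0.10, adjusted p = 1.16e-05).

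Lyz2 (1370154_at), lysozyme of phagocytes, had sham signals of 2.09, 2.58 and 3.14, ablation signals of 1.97, 2.27 and 2.69 and estradiol signals of 2.08, 2.28 and 2.60. The groups overlapped widely, and the change was -0.28 (SE 0.10, adjusted p = 0.0363). This call did not hold without sham array 1, 4, 9, 11 or 13 or ablation array 1, 2, 6 or 9, where adjusted p lay between 0.053 and 0.0726. Laptm5, a lysosomal membrane protein of blood cells, changed by -0.22 (SE 0.13, adjusted p = 0.25) and was not called. Its second probe set, of lower mean, was called at -0.68 (SE 0.23, adjusted p = 0.0323).

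The promoters of 4 of the lowered genes are shown because all 4 genes were called lower with ablation and 3 of them hold the purine-rich core that PU.1 is known to bind. Each sequence is the 250 bases before the RefSeq start in the rat build GRCr8, 5′ to 3′ on the gene's strand, with GAGGAA, here always on the opposite strand and so read as TTCCTC, in capitals.
Cd163 (chr4:158770524-158770773, plus strand): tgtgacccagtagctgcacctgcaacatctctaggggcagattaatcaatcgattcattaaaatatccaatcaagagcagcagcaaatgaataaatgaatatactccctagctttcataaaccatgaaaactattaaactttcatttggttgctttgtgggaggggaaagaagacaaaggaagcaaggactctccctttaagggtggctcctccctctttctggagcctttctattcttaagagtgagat
Mrc1 (chr17:82157475-82157724, plus strand): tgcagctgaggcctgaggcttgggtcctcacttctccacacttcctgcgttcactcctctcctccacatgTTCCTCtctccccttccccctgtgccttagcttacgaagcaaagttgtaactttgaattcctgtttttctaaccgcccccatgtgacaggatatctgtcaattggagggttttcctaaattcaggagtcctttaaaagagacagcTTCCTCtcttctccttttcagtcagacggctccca
Cd68 (chr10:54882442-54882691, minus strand): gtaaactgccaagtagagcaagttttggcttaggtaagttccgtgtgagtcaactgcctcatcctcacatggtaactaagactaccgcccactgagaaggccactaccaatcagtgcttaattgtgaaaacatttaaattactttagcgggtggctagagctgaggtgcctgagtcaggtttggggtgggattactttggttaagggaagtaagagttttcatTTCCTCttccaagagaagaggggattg
Ctss (chr2:185775146-185775395, plus strand): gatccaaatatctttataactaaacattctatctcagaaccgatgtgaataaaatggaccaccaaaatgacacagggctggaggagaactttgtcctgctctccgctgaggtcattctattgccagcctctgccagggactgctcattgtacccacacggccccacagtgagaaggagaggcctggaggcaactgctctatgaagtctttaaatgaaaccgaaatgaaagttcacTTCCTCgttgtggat

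Mrc1 holds the core 180 and 35 bases before the start, Cd68 27 bases and Ctss 15 bases before it, and Cd163, the gene with the lowest change, holds none in this window. Searching GAGGAA on both strands found it in 15 of the 21 genes of the set with a promoter entry (71.4%) and in 23.2% of all 27457 promoters of the same length. Of the genes with this core, Mrc1, Cd68, Csf1r, Lyz2, Cybb and Ctss were called lower with ablation. Ptprc, Cd14, Fcgr3a, Laptm5, Cd53, Cd86, Tlr4 and Adgre1 hold it too and were not called, and Itgam, which holds it, was not tested. The longer GAGGAAGT, which contains the core, was found in Ctss, Fcgr3a and Cd53, that is 3 of 21 (14.3%), against 2.04% of all promoters. Fcgr3a and Cd53 were not called with ablation, so the longer match was held by called and uncalled genes alike. A match is a description of letters and not a binding site. Csf1, Aif1, Itgb2, Fcgr2b, Fcer1g, Tyrobp, Lgals3, Msr1, Spi1, Cd4, Ccl2, Slc11a1 and C5ar1 were not matched to an entry.

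Receptor and ligand of the growth factor axis were both measured. Csf1r (1388784_at), the receptor for CSF1, had sham signals of 0.43, 0.90 and 1.39, ablation signals of 0.28, 0.64 and 0.88 and estradiol signals of 0.36, 0.61 and 0.96. All 11 ablation arrays lay below the sham mean but only 3 below the lowest sham array. Csf1r fell 1.25-fold (-0.33, SE 0.11, adjusted p = 0.0279). Without sham array 1 or 5 or ablation array 5, 6 or 7 it was not called, with adjusted p between 0.0508 and 0.0566.

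Csf1 (1380582_at), the ligand, had signals of 1.37, 1.70 and 1.98 in sham, 1.43, 1.69 and 1.99 in ablation and 1.55, 1.66 and 2.58 in estradiol arrays. The sham and ablation ranges nearly coincide, and the change was 0.02 (SE 0.09, 95% interval -0.16 to 0.21, adjusted p = 0.893). The other 3 kept probe sets of Csf1 gave -0.58 (SE 0.17, adjusted p = 0.013), -0.38 (SE 0.14, adjusted p = 0.0488) and -0.09 (SE 0.14, adjusted p = 0.731). The mean over all 4 gave -0.26 with an adjusted p of 0.0313. Whether a fall of Csf1 was called thus depends on the probe set, and no probe set was called higher.

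**Figure D3:**
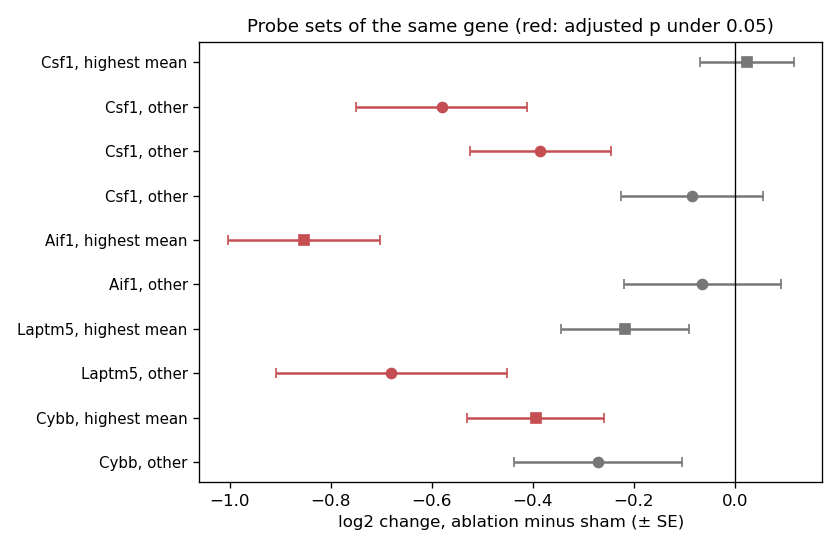
Log2 change, ablation minus sham, with ± SE for each kept probe set of Csf1, Aif1, Laptm5 and Cybb; squares are the probe sets of highest mean, circles the others, and red marks an adjusted p under 0.05. In each of the 4 genes some probe sets are called lower and others are not, as in Aif1 with -0.85 and -0.06.

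Of 6 tested leukocyte genes that many immune cells share, 2 were called lower and 4 were not called, where 12.8% of all genes were called lower. These genes are too few for the count to be read against that share. Aif1 (1368558_s_at), an actin-bundling protein also known as IBA1, had sham signals of -0.75, 0.10 and 0.46 and ablation signals of -1.44, -0.89 and 0.29. The estradiol signals were -1.56, -0.62 and -0.02. Ablation array 8 stood well above the other 10, and sham array 3 well below the other 13. The change was -0.85 (SE 0.15, 1.81-fold, adjusted p = 5.78e-05). A second Aif1 probe set changed by -0.06 (SE 0.16, adjusted p = 0.827), and the mean of both gave a change of -0.46.

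Cd4 (1369483_at), which rat macrophages carry as well as helper T cells, had sham signals of -0.88, -0.19 and 0.62, ablation signals of -1.51, -0.74 and -0.28 and estradiol signals of -1.03, -0.62 and -0.49. The groups overlapped, with all 11 ablation arrays below the sham mean. Cd4 fell 1.52-fold (-0.60, SE 0.15, adjusted p = 0.00284). With those 4 sham arrays alone the call was lost (-0.52, adjusted p = 0.067). Of the 8 tested markers of T and NK cells, 0 were called (0 at an unadjusted p under 0.05, limma), and their median change was 0.09, with summed linear signals of 3.46 to 4.59 in sham and 3.51 to 4.89 in ablation arrays.

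Ptprc (1390798_at), CD45 of all leukocytes, had signals of -0.95, -0.07 and 0.27 in sham, -1.01, -0.11 and 0.18 in ablation and -0.51, -0.09 and 0.19 in estradiol arrays. The groups overlapped almost wholly and the change was -0.15 (SE 0.13, 95% interval -0.41 to 0.12, adjusted p = 0.482). The integrin subunit Itgb2 changed by -0.07 (95% interval -0.26 to 0.13) and the tetraspanin Cd53 by 0.00 (-0.27 to 0.26), neither of them called. The costimulator Cd86, with 9 of 31 arrays above the filter level, changed by -0.12 (adjusted p = 0.52).

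Itgam (1388046_at), the alpha chain that pairs with Itgb2 to form CD11b/CD18, exceeded the filter level in only 3 arrays. Its signals were -4.62, -2.66 and -1.77 in sham, -5.10, -4.19 and -2.54 in ablation and -4.62, -3.93 and -2.24 in estradiol arrays. No test was made at these levels.

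**Figure D4:**
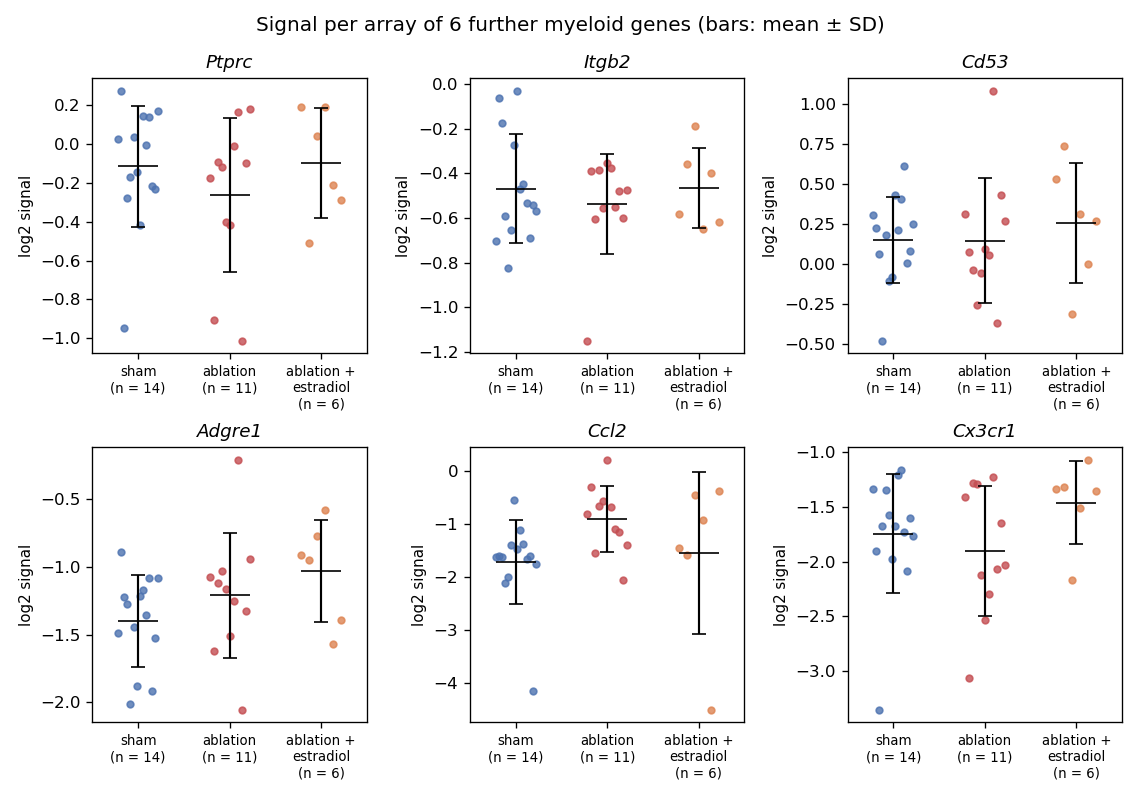
Log2 signal of Ptprc, Itgb2, Cd53, Adgre1, Ccl2 and Cx3cr1 in each of the 31 arrays, with bars for the group mean ± SD. In all 6 genes the groups overlap, and single arrays lie far below the rest in Ccl2 at -4.14 in sham and -4.50 with estradiol.

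Among the sensors of microbes and complement, 1 of 4 was called, and it was lower. Over all genes 12.8% were called lower with ablation, and so small a count does not set this group apart. C5ar1 (1368742_at), the receptor for complement fragment C5a, had sham signals of -0.24, 0.20 and 0.65, ablation signals of -0.43, -0.26 and 0.30 and estradiol signals of -0.62, -0.14 and 0.00. Of the ablation arrays 6 lay below the lowest sham array, while arrays 1, 6, 7, 8 and 9 lay within the sham range. The change was -0.31 (SE 0.10, adjusted p = 0.0284), and it was not called without ablation array 2, 5, 10 or 11 (adjusted p between 0.0506 and 0.0577). Cd14, the coreceptor for lipopolysaccharide, changed by -0.26 (adjusted p = 0.185), Tlr2 by -0.26 (adjusted p = 0.189) and Tlr4 by 0.22 (adjusted p = 0.276), none of them called. Tlr4 exceeded the filter level in only 11 arrays, and its change was 0.05 with values raised to that level.

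Of the Fc receptor and adaptor genes, Tyrobp (1374730_at), which encodes the signalling adaptor DAP12, was called. Its signals were -1.50, -0.50 and -0.13 in sham, -1.32, -0.84 and -0.64 in ablation and -1.22, -0.74 and -0.63 in estradiol arrays. All 11 ablation arrays lay below the sham mean, yet sham array 7 was lower than each of them. The change was -0.32 (SE 0.11, adjusted p = 0.0382). It was not called without sham array 1, 3, 4, 5, 6, 9 or 12 or ablation array 2, 3, 7, 9 or 10, where adjusted p lay between 0.0514 and 0.0825. Fcer1g, the common gamma chain of Fc receptors, changed by -0.22 (SE 0.09, adjusted p = 0.0688). Without sham array 3, 7 or 11 or ablation array 1, 3 or 8 it was called, with adjusted p between 0.0123 and 0.0479. The Fc receptor Fcgr3a changed by -0.10 (adjusted p = 0.642). Its neighbour on chromosome 13, Fcgr2b, exceeded the filter level in 0 arrays.

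The membrane-bound NADPH oxidase subunits, which make superoxide in phagocytes, were both called lower, though weakly, where 12.8% of all genes were called lower. Cybb (1379344_at) had sham signals of -1.12, -0.50 and -0.06, ablation signals of -1.54, -0.93 and -0.41 and estradiol signals of -0.97, -0.70 and -0.01. The groups overlapped and the change was -0.39 (SE 0.14, adjusted p = 0.0358), against -0.27 (adjusted p = 0.278) for its second probe set. It was not called without sham array 1, 5, 9, 10, 11 or 14 or ablation array 2, 4, 5, 6 or 9, where adjusted p lay between 0.0516 and 0.0801.

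Cyba (1370219_at), the smaller subunit, had sham signals of -0.51, 0.24 and 1.22, ablation signals of -0.34, -0.16 and 0.28 and estradiol signals of -0.48, 0.04 and 0.25. No ablation array lay below the lowest sham array. The change was -0.36 (SE 0.12, adjusted p = 0.0359). It was lost without sham array 1, 3, 4, 5 or 12 or ablation array 1, 3, 4, 7, 9, 10 or 11, with adjusted p between 0.0502 and 0.0621. The cytosolic subunit gene Ncf1 exceeded the filter level in 0 arrays.

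The chemotaxis genes were not called (0 of 2 tested, 1 at an unadjusted p under 0.05, limma). With 22.1% of all genes called in either direction, 0 of 2 does not set them apart. Ccl2 (1367973_at), the chemokine that draws monocytes from blood, had sham signals of -4.14, -1.61 and -0.55, ablation signals of -2.05, -0.81 and 0.21 and estradiol signals of -4.50, -1.19 and -0.37. Sham array 13 and estradiol array 5 lay far below all others, and below the filter level. The change with ablation was 0.80 (SE 0.34, adjusted p = 0.0917), higher than the sham mean in 10 of 11 arrays. With values below the filter level raised to it the change was 0.63 with an adjusted p of 0.0117. It was called higher too with only the sham and ablation arrays fitted (adjusted p = 0.0299), without the 4 arrays of lowest maxima (0.78, adjusted p = 0.0441) and without estradiol array 5 (0.80, adjusted p = 0.0245). In all, Ccl2 was called in 3 of 14 settings and in 1 of 31 fits with 1 array left out. In the rest it was not called, with adjusted p up to 0.273 by limma.

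Cx3cr1 (1369527_at), the fractalkine receptor, had signals of -3.36, -1.67 and -1.17 in sham, -3.06, -2.03 and -1.23 in ablation and -2.17, -1.34 and -1.07 in estradiol arrays. The groups overlapped, with a change of -0.16 (95% interval -0.59 to 0.26, adjusted p = 0.642). Cx3cr1 exceeded the filter level in 20 arrays, and its change was -0.02 with values raised to that level. Ccr2 (1387742_at), the receptor for CCL2, exceeded the filter level in 1 array, with signals of -4.85, -2.96 and -2.02 in sham, -6.70, -4.18 and -2.76 in ablation and -4.81, -3.77 and -1.88 in estradiol arrays.

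Adding estradiol to the ablation was followed by no called change in these genes. Of the 27 genes 0 were called (0 at an unadjusted p under 0.05, limma), where over all genes 3.46% were called, 2.73% lower and 0.729% higher. At so low a share, 0 called among 27 genes does not set them apart from other genes. The ranges of estradiol and ablation arrays overlapped in all 27 genes; 0.51% of all genes were separated lower and 0.228% higher. The median change was 0.09, against -0.02 over all genes, with 8 of 27 changes below 0. The side of these small changes depends on the scaling: 4 of 27 were below 0 after quantile normalization and 4 after centring. Among all called genes, 21.1% were higher as deposited, 38.6% after quantile normalization and 38.7% after centring.

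The intervals show how large a difference could have gone undetected. For Cd163 the change was -0.13 (95% interval -0.46 to 0.19), for Mrc1 -0.17 (-0.41 to 0.06), for Lgals3 -0.02 (-0.21 to 0.18) and for Ctss 0.09 (-0.16 to 0.33). In each of these 4 genes the upper end of the interval is smaller than the fall with ablation. Csf1r changed by 0.08 (-0.20 to 0.35), an interval that reaches past the size of its fall with ablation. Wider intervals belonged to Cx3cr1 at 0.45 (-0.09 to 0.98) and Ccl2 at -0.64 (-1.49 to 0.22). With values raised to the filter level these changes were 0.21 and -0.22.

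Against sham, the estradiol group had 7 of 27 genes lower and 0 higher (11 at an unadjusted p under 0.05). Over all genes 11.9% were lower, 5.28% higher and 17.2% called in either direction, and of the called genes 30.7% were higher as deposited, 50.1% after quantile normalization and 38.8% after centring. The count of lower genes in the set was 5 after quantile normalization and 6 after centring. Without the 4 arrays of lowest maxima it was 5, with C5ar1 and Cd4 not called (adjusted p = 0.296 and 0.204). In 3 genes, Cd163, Mrc1 and Lgals3, no estradiol array reached the lowest sham array; 2.87% of all genes were separated lower and 0.835% higher. This comparison shares the sham arrays with the first and the estradiol arrays with the second, so it is no independent repeat of either.

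The 7 genes are given here by size of change. Cd163 was 2.20-fold lower than in sham (-1.14, SE 0.15, adjusted p = 7.06e-07). Mrc1 was 1.82-fold lower (-0.87, SE 0.11, adjusted p = 2.94e-07). Aif1 changed by -0.76 (adjusted p = 0.00312; second probe set -0.27, adjusted p = 0.404), Lgals3 by -0.70 (adjusted p = 4.37e-07) and Ctss by -0.51 (adjusted p = 0.00155). Cd4 changed by -0.51 with an adjusted p of 0.0484, a call kept only without sham array 2, 4, 6, 7, 8 or 14 or ablation array 2, 5 or 10 and lost without any 1 of the other 22 arrays, with adjusted p up to 0.135. C5ar1 changed by -0.37 (adjusted p = 0.0345) and was not called without sham array 4 or 12 or estradiol array 1, 2 or 5, with adjusted p between 0.0524 and 0.144. With the replicate number added to the fit as a block, Aif1, Cd4 and C5ar1 were not called. Tyrobp, at -0.27 (adjusted p = 0.199), was called only without sham array 7 (-0.35, adjusted p = 0.029).

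How the genes varied among themselves was read within groups. Each of 26 genes was set against Cd163 over the 14 sham arrays. Mrc1 had the highest Pearson correlation on the deposited values, and Ctss the highest Spearman correlation. Mrc1 had r = 0.72 (permutation p = 0.00361, adjusted 0.0475) and rho = 0.71 (permutation p = 0.00606, adjusted 0.0788). Without arrays 5 and 8, those farthest from the median of Cd163, r was 0.67. Lgals3 had r = 0.72 (permutation p = 0.00365, adjusted 0.0475) and rho = 0.59 (permutation p = 0.0298, adjusted 0.259), but r was 0.44 without arrays 5 and 8, so that on the deposited values the relation rests on those samples. Ctss had r = 0.69 (permutation p = 0.00599, adjusted 0.0519) and rho = 0.72 (permutation p = 0.00511, adjusted 0.0788), and r was 0.55 without them. With only the sham arrays described as control, r was 0.77 for Mrc1, 0.92 for Lgals3 and 0.63 for Ctss. Arrays 1, 5 and 8 are among these, so the values are no check on them. The 4 other arrays are too few for a value of their own. Without sham arrays 1 and 5, whose maxima were low, r was 0.58, 0.38 and 0.55 for these genes. With each array centred on its median, r was 0.80 for Mrc1 (permutation test, adjusted p = 0.0091), 0.81 for Lgals3 (0.0091) and 0.77 for Ctss (0.0116). Without arrays 5 and 8 the centred values were 0.75, 0.62 and 0.66.

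In the 11 ablation arrays 0 of 26 relations passed after adjustment. The closest there was Csf1r (r = 0.75, permutation p = 0.00802, adjusted 0.209; rho = 0.56, permutation p = 0.0768, adjusted 0.943), with r = 0.51 without arrays 7 and 11. In sham arrays Csf1r and Cd163 had r = -0.53 (permutation p = 0.0492, adjusted 0.213) and rho = -0.42 (permutation p = 0.131, adjusted 0.480). There r was -0.35 without arrays 5 and 8 and -0.25 without arrays 1 and 5. The difference between the sham and ablation values of Csf1r was not tested.

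**Figure D5:**
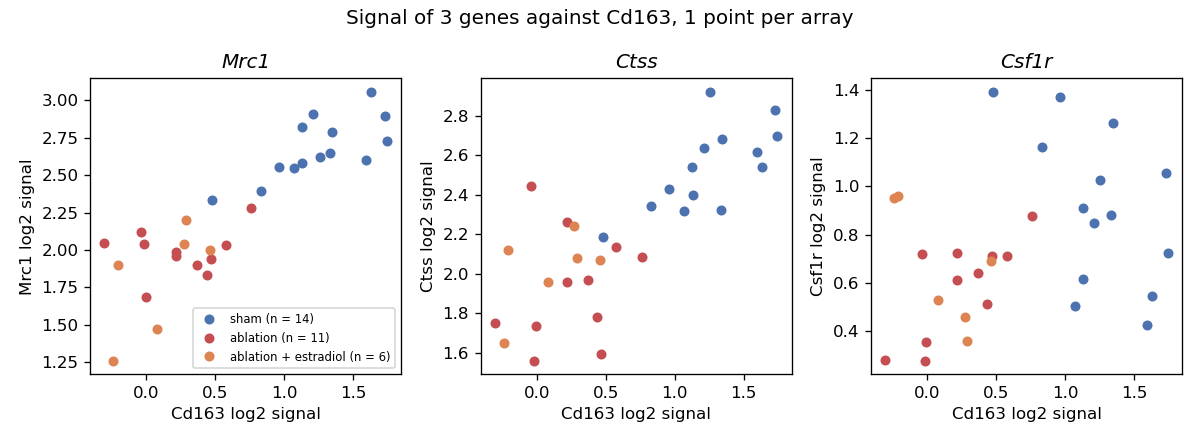
Log2 signals of Mrc1, Ctss and Csf1r against that of Cd163, 1 point per array and 1 colour per group. Within the sham arrays Mrc1 and Ctss tend to be high where Cd163 is high, while Csf1r is not, with r of 0.72, 0.69 and -0.53. Without sham arrays 5 and 8 these values were 0.67, 0.55 and -0.35.

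The wording of the sham descriptions went with no called difference in the set. Comparing the 10 sham arrays described as control with the 4 described as irradiated, limma called 0 of 27 genes and 0.0% of all genes. Ccl2 alone had an unadjusted p under 0.05, at 0.80 higher in those described as control (p = 0.0476, adjusted p = 0.9996). The Cd163 difference was 0.03 (SE 0.20).

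Other genes of myeloid pathways were counted beside the 12.8% of all genes called lower with ablation. Of 9 tested myeloid growth factors, receptors and transcription factors, 3 were lower with ablation, 0 higher. Cebpb, a transcription factor of inflammatory activation, changed by -0.96 (adjusted p = 7.68e-07), Irf8, which directs monocyte development, by -0.55 (0.00614) and Runx1 by -0.50 (0.0117). Cebpb was called higher with estradiol than with ablation alone (0.67, SE 0.17, adjusted p = 0.00961), the only gene of these 5 lists called in that comparison. Cebpa was higher with estradiol than in sham (0.75, adjusted p = 0.0123).

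Of 12 tested chemokines and receptors 1 was lower with ablation, the stromal chemokine Cxcl12 (-1.14, adjusted p = 2.25e-12), which was lower with estradiol against sham as well (-1.21). Of 8 cytokines and effector genes 2 were lower, Spp1, the gene of osteopontin, at -1.57 (2.96-fold, adjusted p = 1.16e-13) and Il1a at -0.53 (adjusted p = 0.023). Spp1 (-1.44) and the lipid carrier Apoe (-0.50) were lower with estradiol against sham. Of 13 lysosomal genes 4 were lower with ablation, cathepsin H gene Ctsh (-1.65, adjusted p = 3.77e-17), progranulin gene Grn (-1.01), Ctsd (-0.91) and Ctsb (-0.41), and 7 with estradiol against sham. Of 20 leukocyte receptors, kinases and cytoskeleton genes 3 were lower with ablation, Pld4 (-0.67), Cd48 (-0.45) and the phosphatase gene Ptpn6 (-0.39), and 2 with estradiol against sham. The shares of the chemokine list (8.33%) and of this last list (15%) lie near the background. With estradiol against sham, 11.9% of all genes were lower. The 5 lists then had 0%, 8.33%, 25%, 53.8% and 10% lower in the order given here. The list medians with ablation were -0.27, -0.01, -0.24, -0.20 and -0.07 in this order, against 0.00045 over all genes, and 0 genes of the 5 lists were called higher with ablation.

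Markers of other cells in the testis moved beside the set, and their part in its fall was not tested. With ablation, 12.8% of all genes were called lower and 9.24% higher. Leydig cell markers had 5 lower and 2 higher of 8 with ablation, with summed linear signals of 59.7 to 117 in sham, 48.5 to 66.1 in ablation and 37.8 to 71.9 in estradiol arrays. Peritubular and stromal markers had 4 lower of 7, with sums of 21.3 to 37.2, 16.2 to 26.8 and 21.0 to 23.3. Endothelial markers had 2 lower of 7, with sums of 4.01 to 5.95, 3.94 to 5.14 and 3.82 to 5.22. The number of endothelial markers called in any comparison was 1 without sham array 1, 5, 8, 9, 10 or 13 or ablation array 3, 4, 5 or 9. Of the neutrophil list only Lcn2, which other cells make too, could be tested (-1.29, lower); the remaining 6 named markers stayed below the filter. The summed signals of the 7 were 2.90 to 4.82 in sham, 1.69 to 3.96 in ablation and 1.63 to 2.38 in estradiol arrays.

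Class II genes went the other way. With ablation 4 of 6 were called higher, where 9.24% of all genes were. Their summed signals were 13.4 to 21.5 in sham, 17.4 to 31.7 in ablation and 18.5 to 26.4 in estradiol arrays. Ctss, whose protease acts on class II processing, was lower. Against sham 3 of the 6 class II genes were higher with estradiol, where 5.28% of all genes were. B cell markers had 0 of 3 called and mast cell markers 0 of 3, both with 0 at an unadjusted p under 0.05 with ablation by limma. Their sums were 1.38 to 2.22 and 1.17 to 2.31 in sham and 1.25 to 2.34 and 1.14 to 2.02 in ablation arrays. Sertoli markers had 2 higher of 5. Of the red cell markers 0 of 3 were called, 0 at an unadjusted p under 0.05. Spermatid markers had 0 of 5 called with ablation (0 at an unadjusted p under 0.05, limma). With estradiol against ablation 1 of them, Prm1, was lower, where 2.73% of all genes were. The sums of the spermatid markers were 0.716 to 84.6 in sham, 0.95 to 24.3 in ablation and 0.881 to 1.28 in estradiol arrays. The number of spermatid markers called in any comparison was 0 without ablation array 4, 5 or 9 or estradiol array 1, 2, 3, 4 or 6, and 2 without sham array 6.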

How the data were processed

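Biotin-labelled RNA, prepared per the labels' protocols from 10 µg of total RNA per array, was hybridised to Affymetrix rat arrays. The deposited log2 values are MAS5 signals, per the submitters' processing notes; the version, base of the logarithm and scaling reference are not given in the sources used here, and the base was read as 2. Detection calls were not used. Of 31099 probe sets, 57 controls were left out, and a probe set needed at least 6 arrays above their own 40th percentile. Symbols came from the platform annotation. Groups follow the treatment labels. With limma 3.58.1 in R 4.3.3 all 31 arrays were fitted with 3 groups and a variance trend on mean signal, tests were 2-sided, with Benjamini-Hochberg adjustment over the 21269 kept probe sets. The pipeline was tested on simulated data. Relations used 100000 permutations. Promoters are RefSeq's, build GRCr8. Summed signals add 2 to the power of each marker's value over all named genes of its list, also those below the filter. The brightest probe sets weigh most in such a sum, which is no measure of cell number. Arrays have no sequencing depth; their number limits the precision. The genes and lists were chosen with earlier results of these data known. By a rule fixed with them, signals by group are printed for genes called in any comparison and, whatever their p, for 12 genes it names, and up to 4 called genes per further list. Alternatives changed the filter, scaling, probe set choice, fit and arrays used. Leaving out the 4 arrays of lowest maxima was chosen after seeing the data.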

Additional observations from a re-analysis of the deposited data

Results flagged for a closer look

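Dixon's test was applied only to the 6 estradiol arrays, the smallest group, and 31 genes of the set were checked there. Chance marks about 1 group in 20. Sham and ablation arrays were not checked in this way. The test marked 3 genes. Fcgr3a, the Fc receptor gene, was at -1.71 in estradiol array 2, and the next lowest array was at -0.71. Ccl2 was at -4.50 in estradiol array 5, below the filter level, with the next lowest at -1.59. C5ar1 was at -0.62 in the same array, with the next lowest at -0.18. Estradiol array 5 was also the lowest of its group for Cd163, Mrc1, Ctss, Cd68, Lyz2, Adgre1, Cybb and Fcer1g. It was the highest of its group for Csf1, Fcgr3a, Laptm5, Cx3cr1 and Tyrobp. This array is among the 4 arrays of lowest maxima.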

How the results depend on the processing

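The lower calls with ablation of Cd163, Mrc1, Lgals3, Ctss and Aif1 held under the 14 settings tried and without any single array; Cd68 and Cd4 lost theirs only with the sham arrays described as irradiated as sole reference. The 13 genes called lower with ablation became 7 with either kind of sham description alone, 8 without sham array 1 and ablation array 2, the extremes on the first principal component, and 8 to 14 with 1 array left out. The 0 called higher became 1, Ccl2, with values raised to the filter level, with only 2 groups fitted, without the 4 arrays of lowest maxima, and without estradiol array 5, with a range of 0 to 1 over single arrays. Csf1, not called at 0.02, was called lower at -0.26 when its probe sets were averaged. The numbers of groups share no stated litter or day. Correlations of deviations between arrays of the same number were -0.0856 to 0.0467 for sham and ablation (0 of 11 best with their own number). They were -0.182 to 0.0594 for ablation and estradiol (1 of 6). For sham and estradiol they were -0.0107 to 0.376 (3 of 6 best with their own number, 3 of 6 over 0.1). The low maxima also fell on numbers 1 and 5 in both sham and estradiol arrays. Whether the numbers link arrays of these 2 groups cannot be told from these values. With the replicate block, 8 genes were lower with ablation, 4 with estradiol against sham (Aif1, C5ar1 and Cd4 not called, Aif1 with an adjusted p of 0.0599), and 2 chemokine genes were called in any comparison.

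Chemokine genes called in any comparison went from 1 to 2 with no filter and with quantile normalization, and ranged from 1 to 2 over single arrays. Cytokine and effector genes went from 3 to 1 against the 4 sham arrays described as irradiated, leukocyte genes from 3 to 1 with the filter at the 60th percentile. Probe sets called with ablation went from 4128 to 2345 with those sham arrays and to 2655 when averaged by gene. With estradiol against ablation 1173 became 329 by gene and 710 without the 4 arrays, and against sham 3093 became 1702 and 2028. Averaging by gene leaves fewer features; the other causes were not tested.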
